A study of Arabidopsis thaliana with 9 samples.

Results

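Well expressed genes that were lower in every HDA6 mutant array than in every control array are described here. HDA6 is a histone deacetylase that removes acetyl groups from histone tails and takes part in silencing transgenes, transposable elements and repeats in Arabidopsis thaliana. Loss of a silencing factor is known mainly for raising transcripts, so genes that are well expressed with the enzyme and lower without it are the less studied side of such mutants. Members were chosen by their values. A probe set counted when its mean signal in the control group was 100 or more, all 6 mutant signals lay below all 3 control signals, and the mean of the 6 was at most 0.6 times the control mean. Of 22746 probe sets that were not controls, 150 in the number range of organelle genes were dropped, 6280 of the remaining 22596 reached the level of 100, and 57 of these (0.908%) met the rule. AT4G16870, XTH33 and EXLA1 were left out by name, at 16.7%, 18.9% and 21.8% of the control mean, which leaves 54 members. A single gene is named for 27 of them, and 27 are unnamed here.

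RNA of whole plants was measured on 9 Affymetrix ATH1 arrays, each holding 1 labelled RNA sample. Col-0 plants, 35 days old, came from Murashige & Skoog plates kept at 21 ºC under constant light. The control group is the double transformant, with Columbia as its source, 3 arrays and no HDA6 mutation in its labels. What it carries, and whether the mutants carry it too, is not given in the sources used here. The 3 null mutant arrays and the 3 amino acid substitution arrays both have rts1-1 as their source and an EMS-induced mutation in HDA6 in their labels. Which mutation an array's plants carry, null or substitution, is stated in the titles alone. EMS is a chemical mutagen, so other mutations in these lines cannot be told apart from the one in HDA6. The labels do not name separate cultures, so the spread between arrays of a group may be technical. Plants of double transformant 1 had a night humidity of 35%, those of the remaining 8 arrays 53%. The titles of double transformant 1, null mutant 1 and substitution array 3 end in rpt. Correlation with the other arrays was lowest for double transformant 3 (mean 0.9459) and null mutant 3 (0.9446), against 0.9542 to 0.9669. Their ratios of 3' over 5' GAPDH control signal, 2.15 and 1.95, exceeded the 1.38 to 1.82 of the rest. The number of arrays limits the precision of every value below.

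Signals are linear MAS5 values in arbitrary units, scaled by array before deposit. In whole plants, less RNA in a cell and fewer cells of a kind cannot be told apart. Of the marker genes for the labelled tissue, RCA, the activase of the carbon-fixing enzyme in leaves, was measured, with signals of 4837.2 to 8543.4 in the double transformant, 4120.2 to 7422.9 in the null mutant and 4586.3 to 6307.6 in the substitution group. The 3 root markers measured (EXPA7, EXPA18 and PYK10) summed to 793.1 to 1136.8, 842.6 to 1281.6 and 997.3 to 1299.0 in the same order. Nearly all of this was PYK10, with a double transformant mean of 966.0 against 5.92 for EXPA7 and 3.54 for EXPA18. The 4 pollen and tapetum markers (AMS, SHT, ANX1 and ANX2) summed to at most 38.0 in any array. PAP85, a seed storage gene, had 4.65 to 34.7, 31.5 to 146.2 and 71.4 to 121.5, and WRKY53, a regulator of senescence, 2.00 to 4.38, 0.813 to 12.3 and 14.9 to 36.2. Only 1 of 14 listed leaf markers, 3 of 10 root, 4 of 9 pollen and tapetum, 1 of 8 seed and 1 of 6 senescence markers were measured. None of those measured passed limma's test in either mutant comparison. Flower markers were not analysed here, and the part of cell makeup in the values below was not tested.

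Since the rule used the mutant arrays against the double transformant, the falls of the members are a description and carry no test. The members' mean over the 6 mutant arrays lay between 15.5% and 59.3% of the double transformant mean, with a median of 49.6%. It was at or under 50% for 29 members. By group, the median member stood at 49.6% in the null mutant (range 18% to 65.6%), and the substitution group had a median of 47% (range 13% to 74%). Among the 6280 probe sets that reached the level, all 6 mutant arrays were below all 3 double transformant arrays for 318 (5.06%) and above them for 218 (3.47%). The mirrored rule, with all 6 above and a mean of at least the double transformant mean divided by 0.6, was met by 38 (0.605%). At the ratio threshold, the nearest members were AT2G36950, LCR68 and probe set 264751_at at 0.5932, 0.5905 and 0.5851, and the nearest sets outside it stood at 0.6032, 0.6036 and 0.6053. At the level threshold, AT1G72800, AT1G68585 and AT3G50560 were the nearest members, with double transformant means of 101.1, 105.8 and 106.6. Nearest outside were AT2G41640 at 99.8, an unnamed set at 93.9 and CML42, a calmodulin-like calcium sensor gene, at 92.7.

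**Figure D1:**
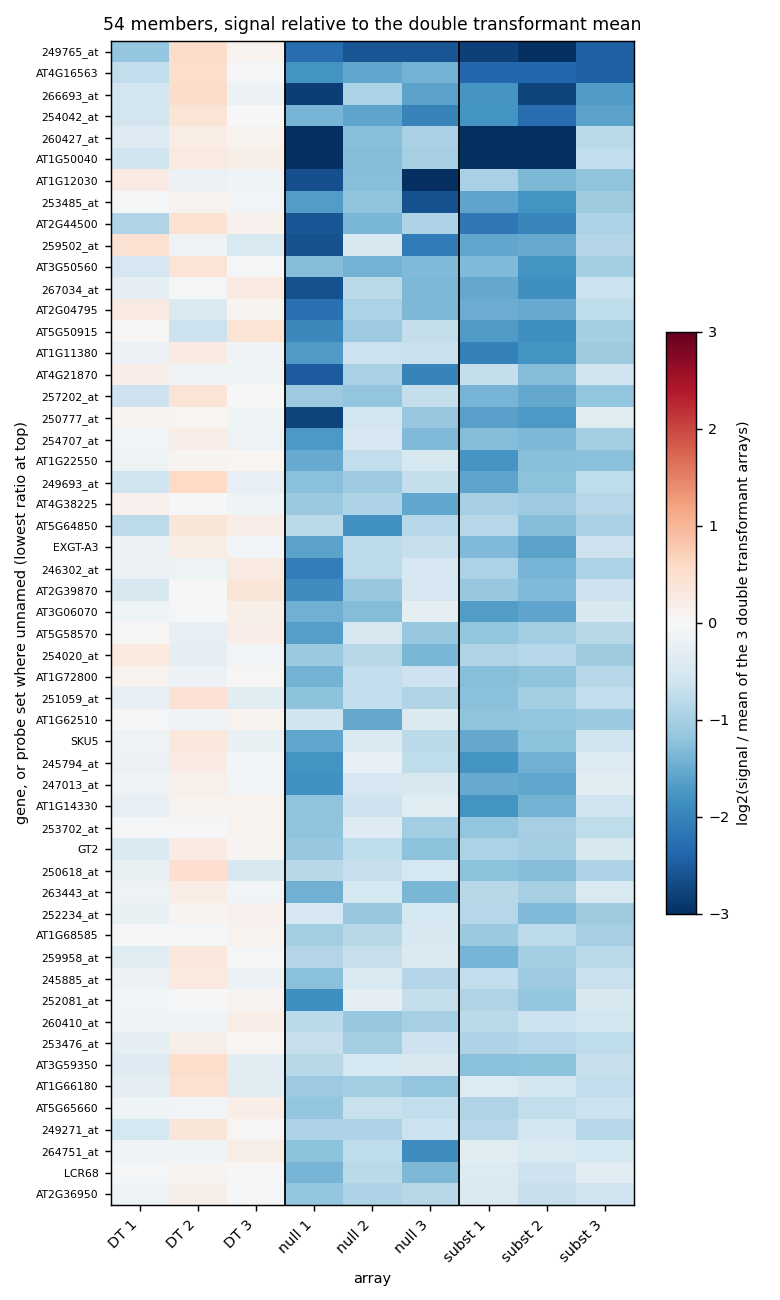
Each row is 1 of the 54 members, ordered by its mutant to double transformant ratio, and each column 1 array (DT, double transformant; subst, amino acid substitution). Colour gives log2 of the signal over the mean of the 3 double transformant arrays, with blue for lower. Null mutant 1 and substitution arrays 1 and 2 are darker than the other mutant arrays in many rows.

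Members for proteins of the cell wall and cell surface are given first. Plant cells grow by loosening and relinking wall polymers. What is said here of genes known only by a locus number is general background on their families. EXGT-A3, also called XTH27, encodes a xyloglucan endotransglucosylase, an enzyme that cuts and rejoins the xyloglucan chains tying cellulose together. Its signals were 1449.2, 1900.0 and 1544.3 in double transformant arrays 1 to 3, 534.5, 951.4 and 1018.2 in the null mutant arrays, and 650.6, 537.8 and 1067.4 in the substitution arrays. The mutant groups overlapped, and the null mutant mean was 51.2% of the control mean, that of the substitution group 46.1%. SKU5 encodes a glycoprotein held at the cell surface that takes part in directed root growth. Its signals were 929.9, 1277.7 and 885.5 in the double transformant, 351.4, 766.6 and 586.8 in the null mutant, and 354.7, 436.9 and 681.4 in the substitution group. As for EXGT-A3, null mutant 1 was the lowest null array and substitution array 3 the highest of its group. AT1G62510 belongs to the lipid transfer protein superfamily of small secreted proteins. It stood at 2428.8, 2318.1 and 2686.7 in the double transformant, at 1650.1, 855.0 and 1826.3 in the null mutant, and at 1082.0, 1082.2 and 1138.0 in the substitution group. Here null mutant 2 was the low null array, and the substitution arrays lay close together. AT5G65660, of a hydroxyproline-rich glycoprotein family, had means of 1141.0 ± 149.4 in the double transformant, 636.0 ± 112.4 with the null mutation and 675.8 ± 56.2 with the substitution (SD, n = 3). AT2G44500 encodes a protein of the O-fucosyltransferase family, enzymes that add the sugar fucose. It had 200.7, 517.0 and 411.6 in the double transformant, 63.5, 146.0 and 197.9 in the null mutant, and 85.4, 96.7 and 196.5 in the substitution group. Its lowest control array, double transformant 1, was only just above null mutant 3 and substitution array 3.

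**Figure D2:**
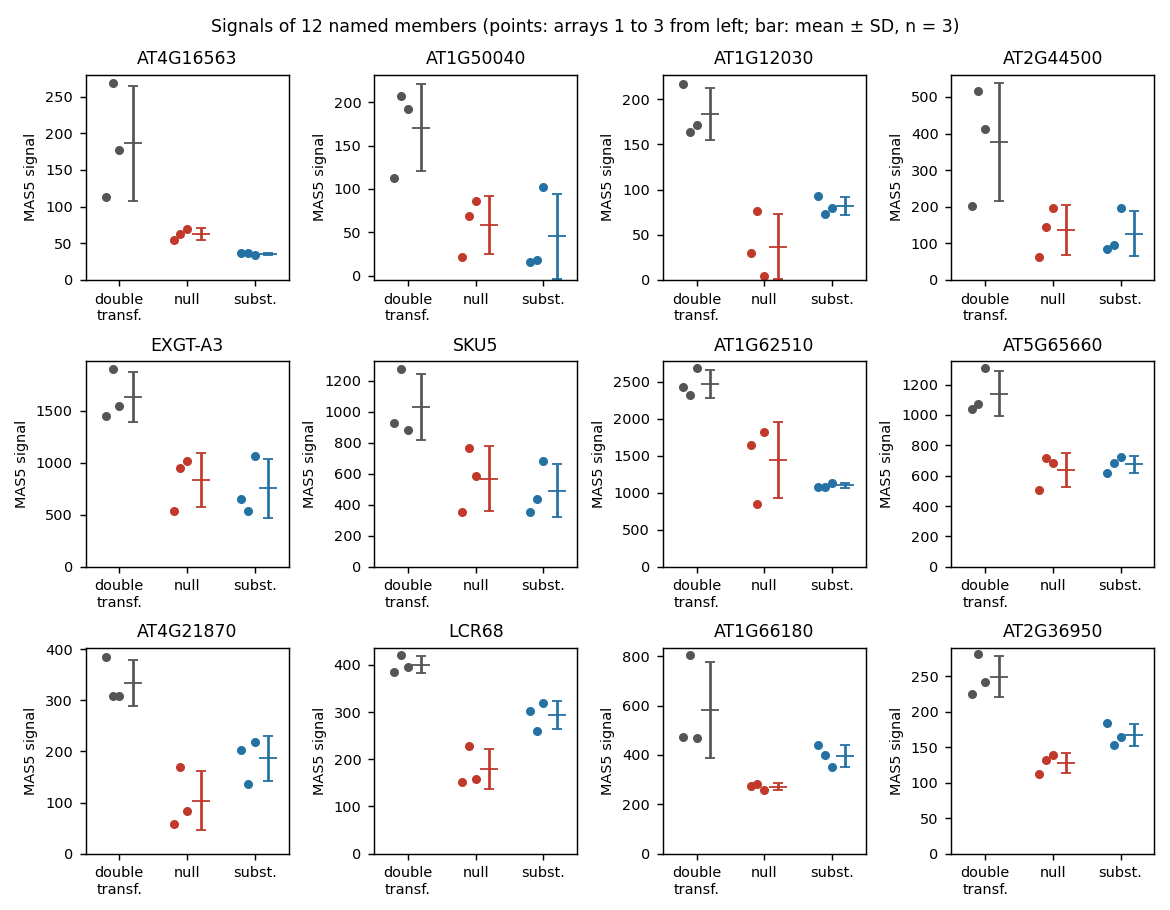
MAS5 signal of 12 named members by group, with the arrays 1 to 3 as points from left to right and the mean ± SD beside them (n = 3). In every panel all 6 mutant points lie below all 3 double transformant points, as the rule required. The null mutant points of LCR68, AT1G66180 and AT2G36950 lie wholly below the substitution points, and those of AT4G16563 wholly above.

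A pair of members encode proteins of the aspartyl protease family, which cut other proteins with the help of aspartate side chains. In these arrays they differed in which mutant group was lower, but neither difference between the mutants passed. Null mutant minus substitution was 0.73 ± 0.25 for AT4G16563 and -0.54 ± 0.19 for AT1G66180 (log2, SE, limma adjusted p = 0.687 and 0.688). AT4G16563 had signals of 112.5, 268.4 and 177.7 in the double transformant, 53.8, 62.8 and 69.9 in the null mutant, and 36.5, 36.2 and 34.1 in the substitution group, all of which lay below the null arrays. AT1G66180 had 472.5, 805.1 and 468.6 in the double transformant, 272.7, 284.1 and 257.2 in the null mutant, and 439.5, 399.1 and 350.8 in the substitution group. Substitution array 1 was close to the lower control arrays there, and the null arrays were lowest. The aspartic protease list held 1 other measured gene, APA1, which did not pass in either mutant comparison (log2 difference 0.12 and 0.15, limma adjusted p = 0.836 and 0.778).

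LCR68, also called PDF2.3, encodes a plant defensin, a small secreted protein held by disulfide bridges, a family known for antifungal members. Its signals were 384.8, 420.8 and 395.2 in the double transformant, 152.0, 228.4 and 157.2 in the null mutant, and 302.3, 260.1 and 318.2 in the substitution group. The null arrays lay below the substitution arrays, at 44.8% against 73.3% of the double transformant mean. Of 13 measured genes of the list of defensins and defensin-like proteins, 0 were called higher in the null mutant and 1 lower, LCR68 itself, whose contrast the rule used, so nothing is read from that count. In the substitution group 1 was called higher, LCR69, and 0 lower. Called at an adjusted p under 0.05 were 0.761% of all probe sets in the null mutant (0.659% higher, 0.101% lower) and 0.747% in the substitution group (0.62% higher, 0.127% lower). LCR69 (PDF2.2) had 1526.1, 1441.7 and 1298.9 in the double transformant, 2097.0, 2214.9 and 1934.9 in the null mutant, and 2575.1, 2356.2 and 2553.0 in the substitution group. It was higher in the substitution group by 0.81 ± 0.13 on the log2 scale (SE, limma adjusted p = 0.0221), and its null mutant difference was 0.55 ± 0.13 (adjusted p = 0.11). The call was lost in 5 of 9 fits without 1 array (double transformant 2 or 3, or substitution array 1, 2 or 3), with log2 differences of 0.75 to 0.86 and adjusted p up to 0.114. By gene order in the RefSeq annotation of TAIR10.1, LCR69, PDF2.1, LCR68 and LCR72 lie in 1 stretch of chromosome 2. PDF2.1 had log2 differences of -0.95 ± 0.52 and -0.28 ± 0.52 from the control (SE, limma adjusted p = 0.549 and 0.902). LCR72, at a mean of 2.69 in the double transformant, is near background.

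**Figure D3:**
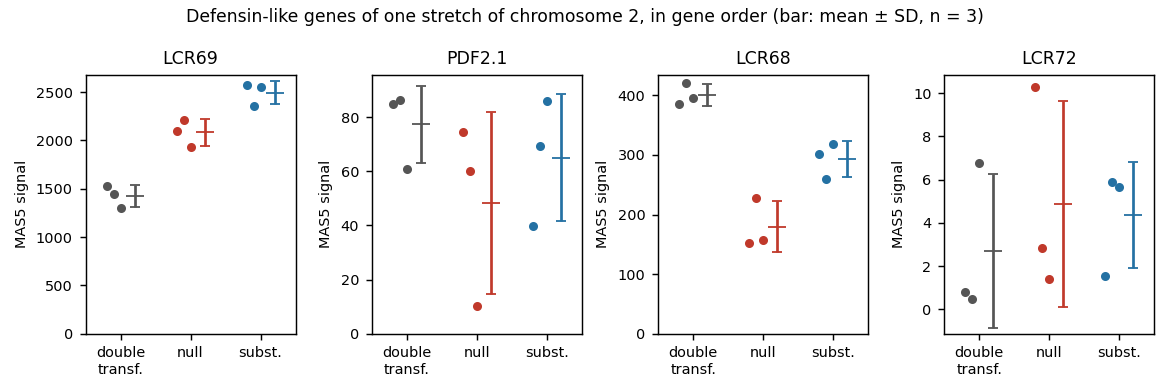
MAS5 signals of 4 defensin genes in their order along chromosome 2, with arrays as points and mean ± SD (n = 3), each panel on its own scale. LCR68 is below the double transformant in all 6 mutant arrays, LCR69 above it in all 6, and PDF2.1 and LCR72 overlap between groups.

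Members for transport and metal binding were fewer. AT1G22550, of the nitrate and peptide transporter family, had 108.7, 127.6 and 127.0 in the double transformant, 42.5, 72.4 and 86.6 in the null mutant, and a mean of 45.5 ± 8.83 in the substitution group (SD, n = 3). The mutant groups overlapped. Of 12 other measured transporters of that family list, 0 were called in either mutant comparison. AT2G36950, of a family with a heavy metal binding domain, had 224.9, 281.2 and 241.5 in the double transformant, 112.3, 132.2 and 139.4 in the null mutant, and 184.8, 153.6 and 164.7 in the substitution group. Its null arrays all lay below its substitution arrays. Other genes of this family were not analysed here.

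Regulators and signalling proteins among the members were AT5G50915, GT2, AT3G59350 and AT1G14330. AT5G50915, a basic helix-loop-helix transcription factor gene, had 165.2, 102.4 and 215.5 in the double transformant, 42.0, 75.8 and 98.8 in the null mutant, and 49.6, 44.8 and 79.5 in the substitution group. Double transformant 2 was close to null mutant 3. GT2, a trihelix factor that binds GT elements of promoters, stood at 161.9 ± 37.1, 79.5 ± 14.1 and 93.3 ± 19.6 in the double transformant, null mutant and substitution group (SD, n = 3). AT3G59350, a protein kinase gene, had 335.6, 632.9 and 346.3 in the double transformant, 245.2, 302.0 and 314.6 in the null mutant, and 185.1, 185.9 and 271.6 in the substitution group. Its mean rests on double transformant 2, with the other control arrays just above null mutant 3. AT1G14330, an F-box gene with kelch repeats, had a null mutant mean of 62.1% and a substitution mean of 44.3% of the control mean.

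AT4G21870, a small heat shock protein gene of the HSP20 type, had 384.9, 308.8 and 307.7 in the double transformant, 58.7, 169.5 and 83.3 in the null mutant, and 203.4, 136.5 and 218.9 in the substitution group. The null arrays were on average lower, with null mutant 2 inside the range of the substitution arrays. ATHSP22.0, the other small heat shock gene measured, had signals of at most 11.2 and did not pass against the control (log2 difference -1.41 and -0.83, limma adjusted p = 0.169 and 0.446). AT3G50560, of a dehydrogenase superfamily, had 75.2, 142.4 and 102.2 in the double transformant against means of 41.9 ± 2.03 with the null mutation and 42.0 ± 11.2 with the substitution (SD, n = 3). Its mean passed the level of 100 through double transformant 2 and 3.

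Members with no well known role included some of the lowest ratios. AT1G50040 had 113.2, 206.7 and 191.8 in the double transformant, 21.1, 69.1 and 85.6 in the null mutant, and 15.6, 18.3 and 101.9 in the substitution group. Null mutant 1 and substitution arrays 1 and 2 were far below the other 3 mutant arrays. AT1G12030 had 216.6, 164.1 and 171.0 in the double transformant, 29.6, 76.1 and 4.7 in the null mutant, and 93.2, 72.5 and 80.0 in the substitution group. Null mutant 3 is near background there. AT2G04795 had 252.5, 155.7 and 220.4, then 44.3, 109.1 and 82.8, then 74.7, 72.9 and 123.1 in the double transformant, null mutant and substitution arrays. AT1G11380, of the PLAC8 family, had 175.7, 236.5 and 184.3 in the double transformant, 61.5, 126.3 and 124.2 in the null mutant, and 48.4, 57.4 and 95.5 in the substitution group. Substitution arrays 1 and 2 were its lowest. AT4G38225 was even within groups, at 404.4 ± 37.8, 179.6 ± 38.6 and 205.6 ± 17.9 (SD, n = 3), and AT5G64850 was not, at 129.4 ± 48.1, 60.6 ± 20.8 and 63.2 ± 9.64. Double transformant 1 of AT5G64850, at 74.9, was just above null mutant 1, at 73.5. The remaining named members were AT2G39870, AT3G06070, AT5G58570, AT1G72800 and AT1G68585, with means over the 6 mutant arrays at 49%, 49.5%, 49.6%, 50.4% and 55.2% of the double transformant mean.

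The 27 unnamed members had double transformant means of 115.1 to 984.5. They stood at 15.5% to 58.5% of these means, with a median of 51.3%, against a median of 49% for the named members, and 13 of the 27 were at or under 50%. The lowest ratio of all 54 belonged to the unnamed probe set 249765_at. It had 129.5, 428.2 and 315.8 in the double transformant, 59.6, 49.2 and 48.8 in the null mutant, and 42.1, 18.5 and 53.1 in the substitution group. The control arrays of this set spread widely, and the highest mutant array was null mutant 1.

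Arrays of 1 group were not equally low. The median member stood at 37.4%, 56.2% and 54.3% of the double transformant mean in null mutant 1, 2 and 3, and at 41.7%, 40.4% and 58% in substitution arrays 1, 2 and 3. Null mutant 1 was the lowest null array for 38 of 54 members (70.4%), against 34.6% of the 6280 probe sets at the level. Substitution array 3 was the highest of its group for 44 of 54 (81.5%), against 32.2% of the 6280. Within the double transformant, array 2 was highest for 32 members (59.3%, against 28.9%) and array 1 was lowest for 34 (63%, against 32.9%). The median coefficient of variation of the members was 17.5%, 32.7% and 19.5% over the double transformant, null mutant and substitution arrays, against 12.1%, 13.5% and 9.41% over the 6280. The rule chose members by these same signals, and its part in these shares and in the spread was not tested. Over the 6280 sets the median lay between 94.9% and 100.6% of the double transformant mean in all 9 arrays. Among the null arrays it had the same order as for the members, at 94.9%, 98.6% and 95.8% in arrays 1 to 3, and the part of this in the members' order was not tested. The substitution arrays, at 95.8%, 98.3% and 97%, had another order. Null mutant 1 and substitution array 3, whose titles both end in rpt, were at opposite ends of their groups. Double transformant 1 is both an rpt array and the array with the lower night humidity, and its part in the falls was not tested. With double transformant 1 left out, 204 probe sets met the rule, not counting the genes left out by name, and 53 of the 54 members were among them. By the same count 111 met it with null mutant 3 left out, and 115 with double transformant 3 and null mutant 3 both left out. Over the other 7 arrays left out singly the number was 53 to 67. Without double transformant 2, 42 of the 54 members still met the rule, the fewest of any such set.

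**Figure D4:**
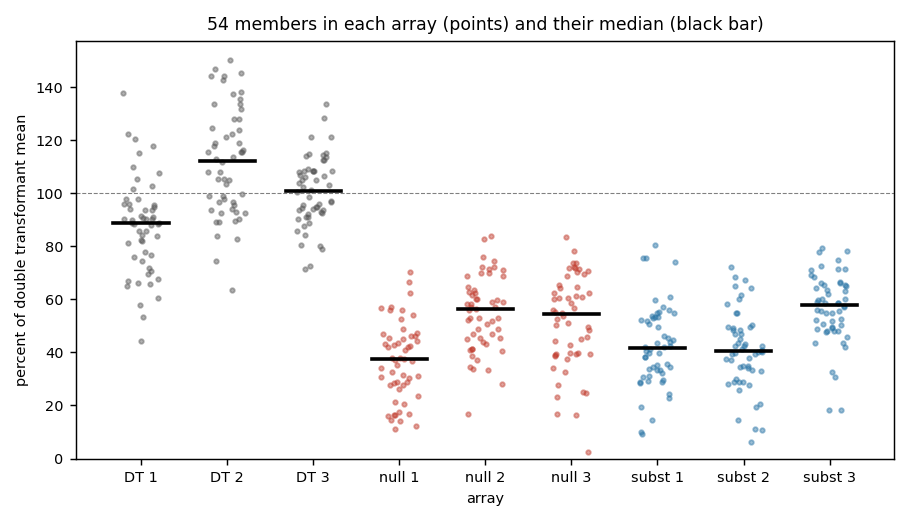
Signal of each of the 54 members in each array as a percent of its double transformant mean (points), with the median per array as a black bar (DT, double transformant; subst, amino acid substitution). The medians run from 88.9% to 112.3% in the double transformant and from 37.4% to 58% in the mutant arrays, lowest in null mutant 1.

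The rule set no condition on the difference between the mutant groups, so that difference could be tested, though with a limit. All 6 mutant arrays had to lie below the control, so a gene lower in 1 mutant group alone could not be a member. That narrows the differences members can show, while the shares given for other probe sets have no such limit. The test asks whether genes lower in both mutants fell further with the null mutation or with the substitution. By limma across all 22746 probe sets, 0 of the 54 members differed at an adjusted p under 0.05, against 9 probe sets in all (0.0396%; 0.0352% higher and 0.0044% lower in the null mutant). At an unadjusted p under 0.05 there were 7 members (13%), against 1447 probe sets (6.36%). The null mutant was lower than the substitution group for 24 members and higher for 30, by -1.58 to 0.73 on the log2 scale. The median was 0.0562, against 0.0265 over all probe sets, and the median standard error of a member was 0.249. The 3 null arrays lay wholly below the 3 substitution arrays for 4 members (7.41%, against 6.94% of the 6280 sets) and wholly above for 3 (5.56%, against 5.8%). The smallest p among named members belonged to LCR68, which was lower in the null mutant by -0.72 ± 0.15 on the log2 scale (SE, limma adjusted p = 0.267). It was followed by AT4G21870 (-0.92 ± 0.31, adjusted p = 0.679), AT2G36950 (-0.38 ± 0.13, adjusted p = 0.685) and AT4G16563 (0.73 ± 0.25, adjusted p = 0.687). None of these differences passed, and a p that misses the threshold does not show that both mutations had the same effect. Without null mutant 2 the adjusted p of LCR68 was 0.0232 and that of AT4G21870 0.0477, and 3 members were called, all lower in the null mutant. Calls over all probe sets also rose in that fit, to 48 (20 higher and 28 lower in the null mutant). Without the 3 rpt arrays 2 members were called, both higher in the null mutant, against 18 probe sets in all (14 higher and 4 lower). The median over the members was then 0.386. With the rpt titles as a covariate 0 members were called. Each group holds 1 rpt array, so that term cannot move a log2 difference, and the median necessarily stayed at 0.0562.

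**Figure D5:**
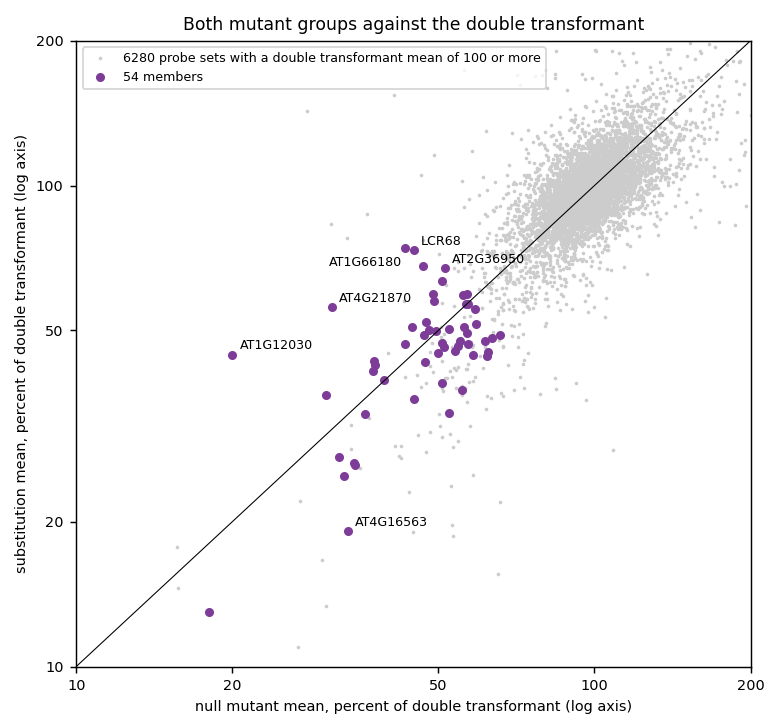
Mean of the null mutant (x) and of the substitution group (y) as a percent of the double transformant mean, on log axes that cover 10 to 200, for the 6280 probe sets at the level (grey) and the 54 members (purple). Members lie on both sides of the line of equal values. LCR68, AT1G66180 and AT2G36950 are above it, where the null mutant is lower, and AT4G16563 is below it.

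Genes of families and pathways were also read from lists, most of which hold no member. Of 10 measured xyloglucan endotransglucosylase genes, 0 were called in the null mutant, while 0 were called higher and 1 lower in the substitution group. That 1 was XTH33 (-2.89 ± 0.43), which itself met the rule, so nothing is read from its call. The call was lost in 4 of 9 fits without 1 array (double transformant 2 or 3, or substitution array 1 or 2). Leaving out EXGT-A3 and XTH33, whose direction the rule fixed, the log2 difference was below 0 for 6 of the other 8 in either mutant group. Their medians were -0.534 (null mutant) and -0.161 (substitution), against 0.019 and -0.00311 over all probe sets. Both comparisons share the double transformant arrays. Most of these 8 were dim. Double transformant means were 1.05 for XTH21, 0.528 for XTH26, 10.5 for XTH29 and 10.8 for XTH20. XTH19 and XTH18 had 25.1 and 30.0. Above 0 in both mutant groups were XTH26 and XTH32, with XTH32 at 0.66 ± 0.24 (null mutant) and 0.49 ± 0.24 (substitution). XTH32 had a double transformant mean of 74.8 and did not pass. The share of all probe sets below 0 was not analysed, so no fall of the family is read from the 6 of 8. XTH16 had 140.3, 748.4 and 339.1 in the double transformant, 37.7, 111.2 and 266.9 in the null mutant, and 52.8, 71.3 and 223.3 in the substitution group. It overlapped between groups and did not pass (adjusted p = 0.435 and 0.359), and double transformant 2 was its highest array, as it was for EXGT-A3 and XTH33.

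Expansins are proteins that loosen walls without cutting their polymers. Of 19 measured, 1 was called higher and 0 lower in the null mutant, and 2 higher and 1 lower in the substitution group. EXPA8 was higher by 1.26 ± 0.21 and 1.63 ± 0.21 (limma adjusted p = 0.0187 and 0.0046), and EXPA9 in the substitution group by 1.57 ± 0.20 (adjusted p = 0.00415). The 1 lower was EXLA1 (-2.85 ± 0.47), which also met the rule. Since the rule used this contrast, nothing is read from the call of EXLA1. The calls in the substitution group of EXPA8 and EXPA9 held in all 9 fits without 1 array, that of EXPA8 in the null mutant was lost in 4 (double transformant 2 or 3, null mutant 1 or 3), and that of EXLA1 in 4 (double transformant 2 or 3, substitution array 1 or 2). Of 7 touch response genes, those raised by bending or wind, the only calls were those of XTH33 and EXLA1, lower in the substitution group. Both met the rule, which fixed their direction, so nothing on touch response is read from these calls. For the 5 that did not meet the rule, the substitution group's median was 0.549 on the log2 scale, with 1 gene below 0. The null mutant's was -0.127, with 3 genes below 0. Of 7 genes of sucrose and starch metabolism, 1 was called, ATSPS4F, a sucrose-phosphate synthase gene. It was lower in the null mutant by -0.71 ± 0.13 (adjusted p = 0.0282), and the call was lost in 5 of 9 fits without 1 array (double transformant 1 or 3, null mutant 1 or 3, or substitution array 3). No gene was called in either mutant among 34 for photosynthesis, 22 cytochromes P450, 14 glutathione transferases, 14 of auxin response, 7 WRKY factors, 7 peroxidases, 3 pectin methylesterases, 3 of lignin synthesis and 2 of the circadian clock. In the same order, 32, 4, 5, 2, 2, 2, 0, 1 and 2 of these had a double transformant mean of 100 or more. Most of the 34 are genes of the chloroplast genome, whose probe sets were dropped before the rule. EIN3, a transcription factor of the ethylene response, was not called either.

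Features the rule did not use were also read. All 27 named members were protein-coding, as were 99.6% of 3063 named probe sets at the level. All 54 members were read from probe sets with the plain suffix, against 96% of the 6280, so none rests on a set marked as shared between related sequences. Named members were on chromosomes 1 to 5 in numbers of 10, 6, 3, 4 and 4, or 37%, 22.2%, 11.1%, 14.8% and 14.8%, against 25.2%, 15%, 20.6%, 15.1% and 23.9% of the named sets at the level. They were not neighbours: the closest were EXGT-A3 and LCR68, 34 protein-coding genes apart on chromosome 2. Their median gene length was 1974 bases, against 2267. Of 28 measured genes next to a named member, 0 were called in either mutant, against 0.761% and 0.747% of all probe sets. With shares this small, nothing is read from the 0 of 28. Some of the 28 were near background, such as AT5G50910 and AT1G50050, with double transformant means of 0.596 and 1.39. The median log2 difference of the 28 was -0.035 for the null mutant and 0.005 for the substitution group.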

How the data were processed

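The authors deposited 1 intensity per probe set and array, on a linear scale. Per the submitters' processing notes, the tools were MAS5 and GCOS, of unstated version. After trimming 2% at each end, array means lay between 98.84 and 99.15, so the arrays had been scaled before deposit. Groups come from the titles. Members were found on linear signals. Tests used log2(signal + 4.053), the offset being the 20th percentile, which understates changes of dim sets. All 9 arrays entered 1 limma model (limma 3.58.1, R 4.3.3, empirical Bayes with an intensity trend, tested on simulated data), with Benjamini-Hochberg adjustment over 22746 probe sets after 64 control sets were left out. Detection calls were not used here.

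Probe sets were named from GEO's older annotation of the array. Symbols were brought up to date by gene identifier from RefSeq's TAIR10.1, used only for names, lengths, chromosomes and order: 13513 sets have 1 gene, 503 several and 8730 none here, and 13436 matched a current locus. In lists each locus is read from its probe set with the highest mean. After the values were seen, 5 genes that had matched a list by symbol alone were taken out as other proteins. No sequences were used. Members and lists were chosen with earlier results of these data known. Named members are the 12 lowest ratios, the 6 highest levels, the 4 smallest p between the mutants and those nearest the thresholds; from lists, up to 3 called genes. Others are named for completeness, after their values were seen. Replicate numbers were not treated as pairs (correlation of deviations -0.0409 to 0.154). Alternatives were other offsets, a dim filter, quantile and median normalization, no trend, replicate and rpt terms, fewer arrays and other thresholds of the rule.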

Additional observations from a re-analysis of the deposited data

How the results depend on the processing

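The number of members, 54 otherwise and counted without the genes left out by name, was 33 at a level of 200. It was 29 and 107 at ratios of 0.5 and 0.7, 100 with signals divided by the array median and 209 without the rpt arrays. Without double transformant 3 and null mutant 3 together (chosen after seeing the data) it was 115, and without single arrays 53 to 204. Called probe sets in the null mutant, 173 otherwise, were 113 without an intensity trend, 61 without the rpt arrays, 58 with only the 6 arrays compared, 57 without the named pair of arrays and 73 to 339 without single arrays. In the substitution group, 170 otherwise, they were 88 without a trend, 321 with a replicate block, 369 without the rpt arrays, 73 without that pair and 46 to 212 without single arrays. The replicate block changed no other count by over 1.5 times (176 in the null mutant, 7 between the mutants). Between the mutants, 9 otherwise, they were 5 with median centring, 0 without a trend, 5 with rpt as a covariate, 18 without the rpt arrays, 4 with only 6 arrays, 0 without that pair and 0 to 48 without single arrays. Members called between the mutants were 2 without the rpt arrays and 0 to 3 without single arrays. The causes were not tested. Differences between the mutants of LCR68 (-0.90 to -0.56), AT4G21870 (-1.33 to -0.47), AT2G36950 (-0.44 to -0.29) and AT4G16563 (0.47 to 0.83) kept their sign under all 20 alternatives. Several of these could not move the differences: the dim filter, no trend, replicate and rpt terms, only 6 arrays, and each double transformant array left out. The genes were also picked by the smallest p of this same comparison, so the kept signs are no independent support.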
